A study of Saccharomyces cerevisiae with 6 samples.

Results

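The genes described here encode the aminoacyl-tRNA synthetases of budding yeast, of the cytosol and of the mitochondria, together with ARC1, a cofactor that binds tRNA. They were taken from a list of 34 genes by standard or systematic name. Of these, 33 matched a row among the 6362 genes measured, 20 cytosolic and 13 mitochondrial, while ILS1, the cytosolic isoleucine enzyme, was not analysed here. The cytosolic genes include 4 (ALA1, GRS1, HTS1 and VAS1) that were classed here as supplying an enzyme to both compartments. Cells were treated with compound 089, which the labels name as a dioxa-aza-bicyclic ethylamide, and each array set treated cells against untreated cells of the same strain. The 3 strains were BY4742derg6, which carries erg6::kanMX4, BY4742dsnq2, which carries snq2::kanMX, and their parent BY4742. All are haploid MATα cells with his3, leu2, lys2 and ura3 mutations, so untreated controls carry every mutation of their treated partner. ERG6 encodes a sterol methyltransferase of late ergosterol synthesis, and SNQ2 encodes a plasma membrane transporter that exports drugs. The treatment was 0.2 mM 089 for 4 h at 28 °C in YPD of pH 4.8, at a density of 1000000000 cells per ml. Each strain had 2 arrays, called biological replicates in the series text, and the sources used here do not say whether a deletion strain is 1 clone.

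An aminoacyl-tRNA synthetase joins an amino acid to its tRNA, the step that fixes which codon stands for which amino acid. In yeast all these enzymes are encoded in the nucleus, with separate genes for most of those that serve protein synthesis inside mitochondria, which make a small set of respiratory chain subunits. When a charged tRNA runs short, the uncharged form activates the kinase Gcn2, and this raises translation of the transcription factor Gcn4.

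Each value is a log2 ratio, treated over untreated, so that 1 stands for a 2-fold change. Direction and base 2 are likely but not stated in the sources used here, and were the ratio the other way round, all signs would be turned. A gene is said to have risen or fallen where its adjusted p in limma, over all genes, was under 0.05. Values after ± are standard errors of that fit with n = 2 arrays per strain. A call is described as kept where it passed under all 14 alternatives in normalisation, replicates and variance model. Of the 74 calls of members over 5 contrasts, 31 were kept. Other calls are given with the range of adjusted p over these alternatives.

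Replicate arrays correlated across genes at r = 0.713 in the erg6 deletion, 0.916 in the snq2 deletion and 0.901 in the parental strain. The standard error pools the spread of a gene over strains, so it can be too small for the erg6 deletion strain. The central 95% of 683 control spots with no yeast gene spanned -1.87 to 3.57 in the erg6 deletion, -1.43 to 2.00 in the snq2 deletion and -1.36 to 2.49 in the parental response, with medians of 1.76, 0.45 and 0.57. The part of this background in the members' values was not tested. Outside these ranges lay the snq2 deletion values of KRS1, FRS1 and ALA1 and the erg6 deletion value of NAM2, and all other member values lay inside. The median gene lay at -0.11, -0.03 and -0.02 in the 3 responses, so values of the erg6 deletion strain can be read relative to that centre. Since treated and untreated cells on an array were of 1 strain, the deleted genes do not check the labels. ERG6 had log2 ratios of -0.65 and -0.85 on the erg6 deletion arrays, 0.17 and 0.38 on the snq2 deletion arrays, and -0.66 and -0.43 on the parental arrays. In the erg6 deletion strain, whose cells lack the gene, ERG6 passed the threshold used for the members, at -0.75 ± 0.11 (adjusted p = 0.00347). Passing the threshold is thus no proof that mRNA of the named gene gave the signal. SNQ2 had 0.22 and 0.11 on the erg6 deletion arrays, 0.22 and 0.025 on the snq2 deletion arrays, and -0.34 and -0.36 on the parental arrays.

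**Figure D1:**
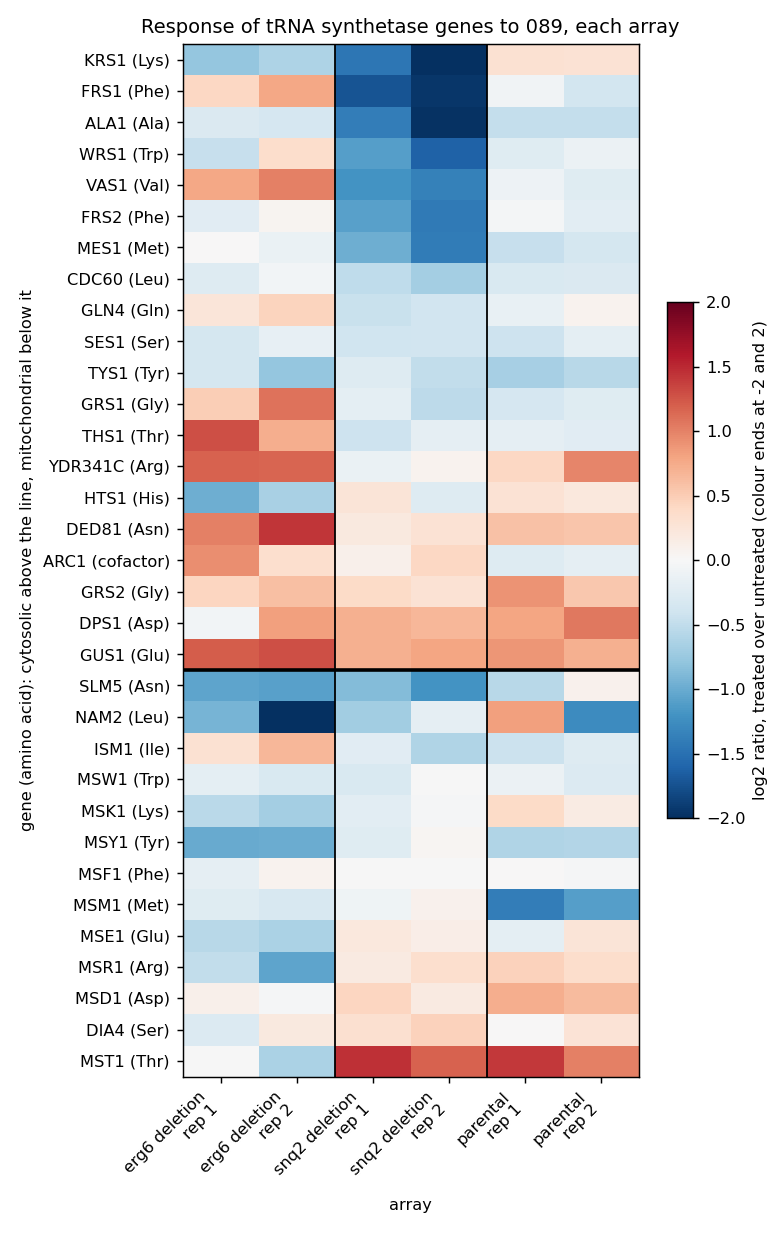
Each row is a gene with its amino acid and each column 1 array; colour gives the log2 ratio of treated over untreated cells, and NAM2 at -4.32 lies beyond the colour scale. Within each compartment the genes run from the lowest to the highest mean in the snq2 deletion strain, and the darkest blue cytosolic rows are KRS1, FRS1 and ALA1 on the snq2 deletion arrays.

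The cytosolic enzymes moved differently in the 3 strains. In the erg6 deletion strain 10 of the 20 cytosolic genes rose, 2 fell and 8 did not pass, where 23.2% of all genes rose and 31.5% fell. With arrays centred on their medians these shares were 27.4% and 24.8%, and the cytosolic counts stayed at 10 and 2. In a fit to the erg6 deletion strain alone 5 rose and 2 fell, where 30.6% of all genes passed. The erg6 deletion count was also smaller without erg6 deletion replicate 2, as was the share of all genes past the threshold. In the snq2 deletion strain 2 rose, 10 fell and 8 did not pass, where 25.3% of all genes rose and 26.2% fell. In the parental strain 5 rose, 5 fell and 10 did not pass, where 27.3% of all genes rose and 26.7% fell. On centred arrays the parental counts were 5 and 2, where 28.1% of all genes rose and 25.5% fell. With arrays also scaled these counts were 5 and 3, beside 27.7% and 25.2% of all genes. The parental count of 10 was smaller without either parental array, as was the share of all genes past the threshold. The same held for the snq2 deletion count of 12 without either snq2 deletion array. All 20 cytosolic genes passed in at least 1 strain, as did 84.7% of all genes. Among the kept calls of cytosolic genes, 5 rose and 1 fell in the erg6 deletion strain, where 12.9% and 15.6% of all genes had such calls. In the snq2 deletion strain 1 rose and 6 fell (11.1% and 12.4% of all genes), and in the parental strain 1 rose and 0 fell (14% and 12.1% of all genes).

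GUS1, the cytosolic glutamate enzyme, was the cytosolic gene that rose in all 3 strains. Its log2 ratios were 1.22 and 1.30 on the erg6 deletion arrays, 0.71 and 0.79 on the snq2 deletion arrays, and 0.88 and 0.72 on the parental arrays. Every array was above 0, and the erg6 deletion arrays lay above those of the other strains. The fitted responses were 1.26 ± 0.09 (adjusted p = 5.19e-04), 0.75 ± 0.09 (adjusted p = 0.00158) and 0.80 ± 0.09 (adjusted p = 0.00112) in that order, and all 3 calls were kept. In yeast Gus1 and the methionine enzyme Mes1 form a complex with Arc1, which delivers tRNA to both. MES1 had log2 ratios of 0.0078 and -0.13 on the erg6 deletion arrays, -0.98 and -1.40 on the snq2 deletion arrays, and -0.47 and -0.35 on the parental arrays. MES1 fell by 1.19 ± 0.12 in the snq2 deletion strain (adjusted p = 0.00115), a kept call. Its parental value of -0.41 ± 0.12 passed (adjusted p = 0.038, range 0.013 to 0.244) but was lost without either parental array and with the replicate block. ARC1 had 0.93 and 0.34 on the erg6 deletion arrays, 0.10 and 0.42 on the snq2 deletion arrays, and -0.26 and -0.18 on the parental arrays. ARC1 passed in the erg6 deletion strain at 0.63 ± 0.16 (adjusted p = 0.0214, range 0.00836 to 0.121), a call lost without erg6 deletion replicate 1 and in a fit to that strain alone. The 3 genes of the complex therefore shared no direction in the snq2 deletion strain, where GUS1 rose, MES1 fell and ARC1 did not pass.

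The largest falls among the members in the snq2 deletion strain were in KRS1, FRS1 and ALA1. KRS1, the lysine enzyme, had log2 ratios of -0.78 and -0.62 on the erg6 deletion arrays, -1.45 and -2.52 on the snq2 deletion arrays, and 0.30 and 0.29 on the parental arrays. The arrays of the 3 strains did not overlap, although the snq2 deletion replicates lay far apart. KRS1 fell by 1.99 ± 0.24 in the snq2 deletion strain (adjusted p = 0.00186), a kept call, and its erg6 deletion value of -0.70 ± 0.24 did not pass (adjusted p = 0.0565). FRS1 and FRS2 encode the beta and alpha subunits of the cytosolic phenylalanine enzyme, which works as a tetramer of both. FRS1 had 0.42 and 0.77 on the erg6 deletion arrays, -1.72 and -1.95 on the snq2 deletion arrays, and -0.08 and -0.36 on the parental arrays. FRS2 had -0.22 and 0.05 on the erg6 deletion arrays, -1.09 and -1.41 on the snq2 deletion arrays, and -0.03 and -0.22 on the parental arrays. Both subunits fell in the snq2 deletion strain, at -1.84 ± 0.13 for FRS1 (adjusted p = 3.88e-04) and -1.25 ± 0.12 for FRS2 (adjusted p = 0.001), and both calls were kept. In the erg6 deletion strain FRS1 passed at 0.59 ± 0.13 (adjusted p = 0.0139, range 0.0061 to 0.0867), lost without erg6 deletion replicate 2 and in a fit to that strain alone. FRS2 had -0.09 ± 0.12 there and did not pass.

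Of the 4 genes classed here as supplying both compartments, ALA1 and VAS1 fell in the snq2 deletion strain. ALA1, the alanine enzyme, had log2 ratios of -0.29 and -0.33 on the erg6 deletion arrays, -1.38 and -1.98 on the snq2 deletion arrays, and -0.48 and -0.47 on the parental arrays. All 6 arrays were below 0, with the snq2 deletion arrays lowest. ALA1 fell by 1.68 ± 0.15 in the snq2 deletion strain (adjusted p = 6.92e-04, kept). Its parental value of -0.47 ± 0.15 passed (adjusted p = 0.0413, range 0.0118 to 0.199) but was lost on centred arrays and without either parental array. VAS1, the valine enzyme, had 0.78 and 1.00 on the erg6 deletion arrays, -1.19 and -1.36 on the snq2 deletion arrays, and -0.10 and -0.24 on the parental arrays. The 3 strains did not overlap and the deletion strains lay on opposite sides of the parental strain. VAS1 rose by 0.89 ± 0.10 in the erg6 deletion strain (adjusted p = 0.00165) and fell by 1.28 ± 0.10 in the snq2 deletion strain (adjusted p = 4.93e-04), and both calls were kept.

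HTS1 and GRS1, the other two of these genes, differed from each other in the erg6 deletion strain. HTS1, the histidine enzyme, had log2 ratios of -0.97 and -0.65 on the erg6 deletion arrays, 0.26 and -0.26 on the snq2 deletion arrays, and 0.29 and 0.21 on the parental arrays. HTS1 fell by 0.81 ± 0.15 in the erg6 deletion strain (adjusted p = 0.00793, kept), 1 of the 2 cytosolic genes that fell there. GRS1, the main glycine enzyme, had 0.50 and 1.09 on the erg6 deletion arrays, -0.19 and -0.52 on the snq2 deletion arrays, and -0.34 and -0.25 on the parental arrays. It passed in the erg6 deletion strain at 0.79 ± 0.16 (adjusted p = 0.0108, range 0.00536 to 0.0681), a call lost in a fit to that strain alone. GRS2 is a paralog of GRS1 that yeast can lose under standard growth. GRS2 had 0.43 and 0.60 on the erg6 deletion arrays, 0.39 and 0.28 on the snq2 deletion arrays, and 0.91 and 0.54 on the parental arrays. All 6 arrays of GRS2 were above 0, whereas GRS1 was above 0 on the erg6 deletion arrays alone. GRS2 passed at 0.72 ± 0.12 in the parental strain (adjusted p = 0.00431, range 0.00214 to 0.0524, lost without parental replicate 1) and at 0.51 ± 0.12 in the erg6 deletion strain (adjusted p = 0.0147, range 0.00738 to 0.0833, lost without erg6 deletion replicate 2 and in a fit to that strain alone). Probe sequences were not used here, so the signal of these paralogs may be shared.

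DED81, THS1 and the arginine gene YDR341C rose in the erg6 deletion strain with calls that were kept. DED81, the asparagine enzyme, had log2 ratios of 1.01 and 1.43 on the erg6 deletion arrays, 0.20 and 0.28 on the snq2 deletion arrays, and 0.59 and 0.55 on the parental arrays. Every array of DED81 was above 0 and the strains did not overlap. The erg6 deletion response was 1.22 ± 0.12 (adjusted p = 0.00117), and the parental response of 0.57 ± 0.12 (adjusted p = 0.0107, range 0.003 to 0.096) was lost without either parental array. THS1, the threonine enzyme, had 1.29 and 0.73 on the erg6 deletion arrays, -0.42 and -0.17 on the snq2 deletion arrays, and -0.19 and -0.23 on the parental arrays. THS1 rose by 1.01 ± 0.15 in the erg6 deletion strain (adjusted p = 0.00367) and did not pass in the other strains. YDR341C had 1.18 and 1.16 on the erg6 deletion arrays, -0.13 and 0.07 on the snq2 deletion arrays, and 0.42 and 0.98 on the parental arrays. YDR341C rose by 1.17 ± 0.15 in the erg6 deletion strain (adjusted p = 0.0023), and its parental value of 0.70 ± 0.15 (adjusted p = 0.0113, range 0.00721 to 0.09) was lost without parental replicate 2. DED81 lies next to YHR020W, a proline enzyme gene transcribed in the opposite direction, and this was the only neighbouring pair of charging genes among 66 member and neighbour pairs. YHR020W had -0.05 ± 0.13 in the erg6 deletion strain, which did not pass, beside the rise of DED81.

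The remaining cytosolic genes had smaller or less stable values. WRS1, the tryptophan enzyme, had log2 ratios of -0.46 and 0.36 on the erg6 deletion arrays, -1.09 and -1.62 on the snq2 deletion arrays, and -0.25 and -0.12 on the parental arrays. Its snq2 deletion value of -1.36 ± 0.22 passed (adjusted p = 0.00501, range 2.25e-04 to 0.0728) and was lost without snq2 deletion replicate 2. CDC60, the leucine enzyme, had -0.59 ± 0.10 in the snq2 deletion strain (adjusted p = 0.00482, range 0.00332 to 0.0611), lost without the same array. GLN4 and SES1, for glutamine and serine, also passed there at -0.42 ± 0.10 and -0.40 ± 0.10, with adjusted p up to 0.122 and 0.126, and were lost without either snq2 deletion array. SES1, CDC60 and TYS1 passed in the parental strain at -0.31 ± 0.10, -0.30 ± 0.10 and -0.61 ± 0.13. These calls were lost under 8, 7 and 2 alternatives, each time including the omission of either parental array, with adjusted p up to 0.355, 0.222 and 0.111. TYS1, the tyrosine enzyme, was below 0 on all 6 arrays, from -0.77 to -0.25, and also passed in the erg6 deletion strain at -0.57 ± 0.13 (adjusted p = 0.015, range 0.0103 to 0.092), lost without erg6 deletion replicate 2 and in a fit to that strain alone. GLN4 passed in the erg6 deletion strain at 0.34 ± 0.10 (adjusted p = 0.0339), lost under 7 alternatives with adjusted p up to 0.204. DPS1, the aspartate enzyme, had -0.06 and 0.82 on the erg6 deletion arrays, 0.71 and 0.67 on the snq2 deletion arrays, and 0.78 and 1.05 on the parental arrays. Its parental value of 0.92 ± 0.21 (adjusted p = 0.015, range 0.00105 to 0.13) and its snq2 deletion value of 0.69 ± 0.21 (adjusted p = 0.0403, range 0.00138 to 0.208) passed. The parental call was lost without either parental array, and the snq2 deletion call without any 1 of the parental and snq2 deletion arrays.

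Synthetases fall into classes I and II by the fold of the catalytic domain. In the snq2 deletion strain 5 of 8 cytosolic class I enzymes fell and 1 rose (median -0.50), and 5 of 11 class II genes fell and 1 rose (median -0.36). In the erg6 deletion strain 4 of 8 class I enzymes rose and 1 fell (median 0.14), and 5 of 11 class II genes rose and 1 fell (median 0.38). Over all genes 25.3% rose and 26.2% fell in the snq2 deletion strain, and 23.2% rose and 31.5% fell in the erg6 deletion strain. The difference between the classes was not tested.

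**Figure D2:**
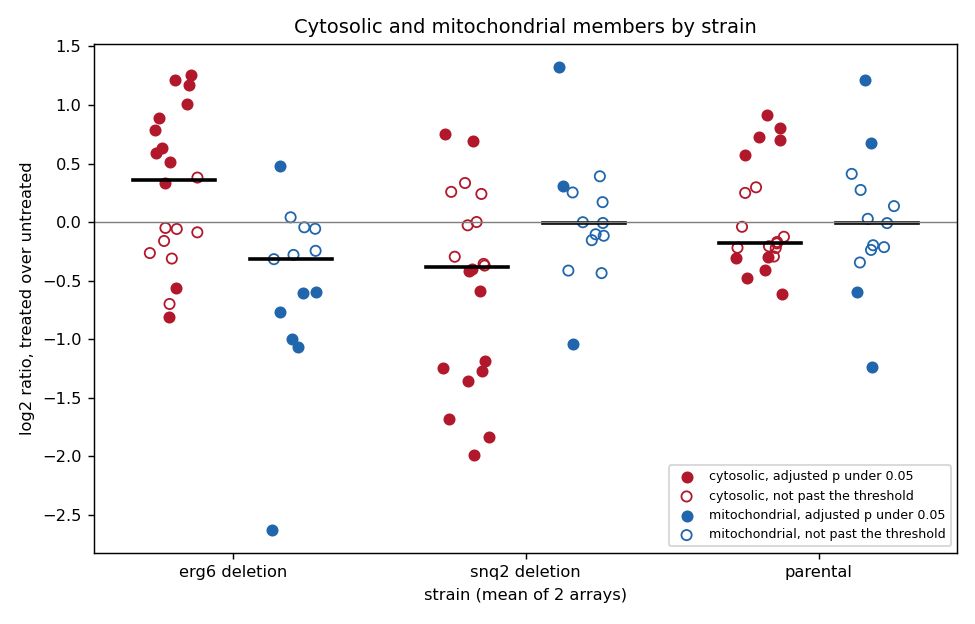
Each point is the mean log2 ratio of 1 gene over the 2 arrays of a strain, red for cytosolic and blue for mitochondrial genes; filled points passed an adjusted p of 0.05 and bars are medians. The cytosolic median lies above the mitochondrial one in the erg6 deletion strain (0.36 and -0.32) and below it in the snq2 deletion (-0.38 and -0.01) and parental strains (-0.18 and -0.01).

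Among the mitochondrial enzymes, 6 of the 13 genes in the erg6 deletion strain were called lower and 1 higher, with 6 not past the threshold. Of all genes 31.5% were lower and 23.2% higher there. On centred arrays 1 rose and 5 fell, beside 27.4% and 24.8% of all genes. In the snq2 deletion strain 2 rose, 1 fell and 10 did not pass, where 25.3% of all genes rose and 26.2% fell. With quantile normalisation 2 rose and 2 fell, beside 26.2% and 27.5% of all genes. In the parental strain 2 rose, 2 fell and 9 did not pass, where 27.3% of all genes rose and 26.7% fell. The erg6 deletion count of 7 was smaller without erg6 deletion replicate 2, and the parental count of 4 without parental replicate 1. The snq2 deletion count of 3 was larger without either erg6 deletion array and smaller without any parental or snq2 deletion array. The share of all genes past the threshold moved the same way in each of these fits. Calls that were kept were 3 falls in the erg6 deletion strain (15.6% of all genes), 1 rise in the snq2 deletion strain (11.1% of all genes), and 1 rise and 1 fall in the parental strain (14% and 12.1% of all genes). A count of 1 in 13 is below these shares. DIA4, MSF1 and MSW1, for serine, phenylalanine and tryptophan, passed in none of the strains, and their 18 values spanned -0.31 to 0.46.

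MSY1, SLM5 and MSK1 gave the kept falls in the erg6 deletion strain. MSY1, the tyrosine enzyme, had log2 ratios of -1.01 and -0.99 on the erg6 deletion arrays, -0.25 and 0.04 on the snq2 deletion arrays, and -0.61 and -0.59 on the parental arrays. The strains did not overlap, and replicates of the erg6 deletion and parental strains lay close together. MSY1 fell by 1.00 ± 0.10 in the erg6 deletion strain (adjusted p = 0.00116), and its parental value of -0.60 ± 0.10 (adjusted p = 0.00451, range 0.00191 to 0.0556) was lost without parental replicate 1. SLM5, the asparagine enzyme, had -1.05 and -1.09 on the erg6 deletion arrays, -0.87 and -1.20 on the snq2 deletion arrays, and -0.56 and 0.08 on the parental arrays. Both deletion strains lay below the parental strain for SLM5 and overlapped each other. SLM5 fell by 1.07 ± 0.17 in the erg6 deletion strain (adjusted p = 0.00465) and passed at -1.04 ± 0.17 in the snq2 deletion strain (adjusted p = 0.0053, range 3.75e-04 to 0.0765, lost without snq2 deletion replicate 2). MSK1, the lysine enzyme, had -0.53 and -0.67 on the erg6 deletion arrays, -0.21 and -0.02 on the snq2 deletion arrays, and 0.39 and 0.16 on the parental arrays. MSK1 fell by 0.60 ± 0.10 in the erg6 deletion strain (adjusted p = 0.00576). There KRS1, its cytosolic counterpart, had a similar value of -0.70 ± 0.24 that did not pass. The standard error of KRS1 pools a replicate gap of 0.16 in that strain with 1.07 in the snq2 deletion strain.

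MSR1, MSE1 and NAM2 also passed below 0 in the erg6 deletion strain and ISM1 above it. MSR1, the arginine enzyme and a paralog of YDR341C, had log2 ratios of -0.50 and -1.05 on the erg6 deletion arrays, 0.17 and 0.33 on the snq2 deletion arrays, and 0.47 and 0.36 on the parental arrays. Its erg6 deletion value of -0.77 ± 0.15 (adjusted p = 0.0078, range 0.00368 to 0.0656) was lost in a fit to that strain alone. MSE1, the glutamate enzyme, had -0.56 and -0.63 on the erg6 deletion arrays, 0.20 and 0.14 on the snq2 deletion arrays, and -0.20 and 0.25 on the parental arrays. Its erg6 deletion value of -0.60 ± 0.12 (adjusted p = 0.0106, range 0.00925 to 0.0517) was lost without erg6 deletion replicate 2. NAM2, the leucine enzyme, which also takes part in splicing of mitochondrial introns, had replicates far apart. Its log2 ratios were -0.93 and -4.32 on the erg6 deletion arrays, -0.69 and -0.18 on the snq2 deletion arrays, and 0.82 and -1.25 on the parental arrays. The value of -4.32 belongs to 153 genes at or below -3 on that array, and it was the only member value there. The erg6 deletion call of NAM2 at -2.63 ± 0.86 (adjusted p = 0.0474, range 0.00589 to 0.285) was lost under 10 alternatives, among them centred arrays and leaving out erg6 deletion replicate 2. ISM1, the isoleucine enzyme, had 0.30 and 0.66 on the erg6 deletion arrays, -0.23 and -0.60 on the snq2 deletion arrays, and -0.43 and -0.26 on the parental arrays. The call at 0.48 ± 0.14 (adjusted p = 0.0317, range 0.0153 to 0.197) was lost under 6 alternatives, among them leaving out erg6 deletion replicate 2 or either parental array.

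MST1, MSM1 and MSD1 changed in the parental strain. MST1, the threonine enzyme of mitochondria, which in yeast also charges a tRNA for codons read as leucine elsewhere, had log2 ratios of -0.0006 and -0.63 on the erg6 deletion arrays, 1.46 and 1.18 on the snq2 deletion arrays, and 1.42 and 1.00 on the parental arrays. The erg6 deletion arrays lay below all others, and the snq2 deletion and parental arrays overlapped. MST1 rose by 1.32 ± 0.19 in the snq2 deletion strain (adjusted p = 0.00316, kept), and its parental value of 1.21 ± 0.19 (adjusted p = 0.00383, range 0.00109 to 0.0513) was lost without parental replicate 1. MSM1, the methionine enzyme, had -0.24 and -0.32 on the erg6 deletion arrays, -0.09 and 0.09 on the snq2 deletion arrays, and -1.38 and -1.10 on the parental arrays. MSM1 fell by 1.24 ± 0.11 in the parental strain (adjusted p = 5.39e-04, kept) and did not pass in the deletion strains. MSD1, the aspartate enzyme, had 0.10 and -0.02 on the erg6 deletion arrays, 0.43 and 0.19 on the snq2 deletion arrays, and 0.72 and 0.63 on the parental arrays. MSD1 rose by 0.68 ± 0.10 in the parental strain (adjusted p = 0.00293, kept), and its snq2 deletion value of 0.31 ± 0.10 (adjusted p = 0.0448, range 0.0347 to 0.298) was lost under 6 alternatives, among them leaving out any parental or snq2 deletion array.

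The cytosolic median lay above the mitochondrial one in the erg6 deletion strain and below it in the other strains. The cytosolic median minus the mitochondrial median was 0.40 and 1.03 on the erg6 deletion arrays, -0.32 and -0.48 on the snq2 deletion arrays, and -0.13 and -0.27 on the parental arrays. The sign was the same on both arrays of each strain, and the erg6 deletion arrays did not overlap the others. Over strain means the difference was 0.68 in the erg6 deletion, -0.38 in the snq2 deletion and -0.17 in the parental strain. Since genes are not replicates, these differences carry no test.

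Enzymes for the same amino acid could be paired for 12 amino acids in 13 pairs, with FRS1 and FRS2 each set against MSF1. In the erg6 deletion strain both arrays of the cytosolic gene lay above both arrays of the mitochondrial gene in 8 pairs, below in 0 pairs, and overlapped in 5. In the snq2 deletion strain the cytosolic gene lay above in 3 pairs and below in 9, with 1 overlap. In the parental strain it lay above in 4 and below in 4, with 5 overlaps. How often pairs of other genes separate in this way was not computed, so these counts have no background share and carry no test. DED81 and GUS1 lay above SLM5 and MSE1 in every strain. DED81 minus SLM5 averaged 2.29 in the erg6 deletion, 1.28 in the snq2 deletion and 0.81 in the parental strain, and this was the largest average over the 3 strains (1.46). GUS1 minus MSE1 averaged 1.85, 0.58 and 0.77 in the same order. THS1 minus MST1 turned with the strain, at 1.29 and 1.36 on the erg6 deletion arrays, -1.88 and -1.36 on the snq2 deletion arrays, and -1.61 and -1.23 on the parental arrays. YDR341C minus MSR1 was 1.67 and 2.21 on the erg6 deletion arrays, -0.30 and -0.26 on the snq2 deletion arrays, and -0.05 and 0.62 on the parental arrays. KRS1 minus MSK1 was -1.24 and -2.50 on the snq2 deletion arrays and spanned 0 on the erg6 deletion (-0.24 and 0.05) and parental arrays (-0.09 and 0.13).

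**Figure D3:**
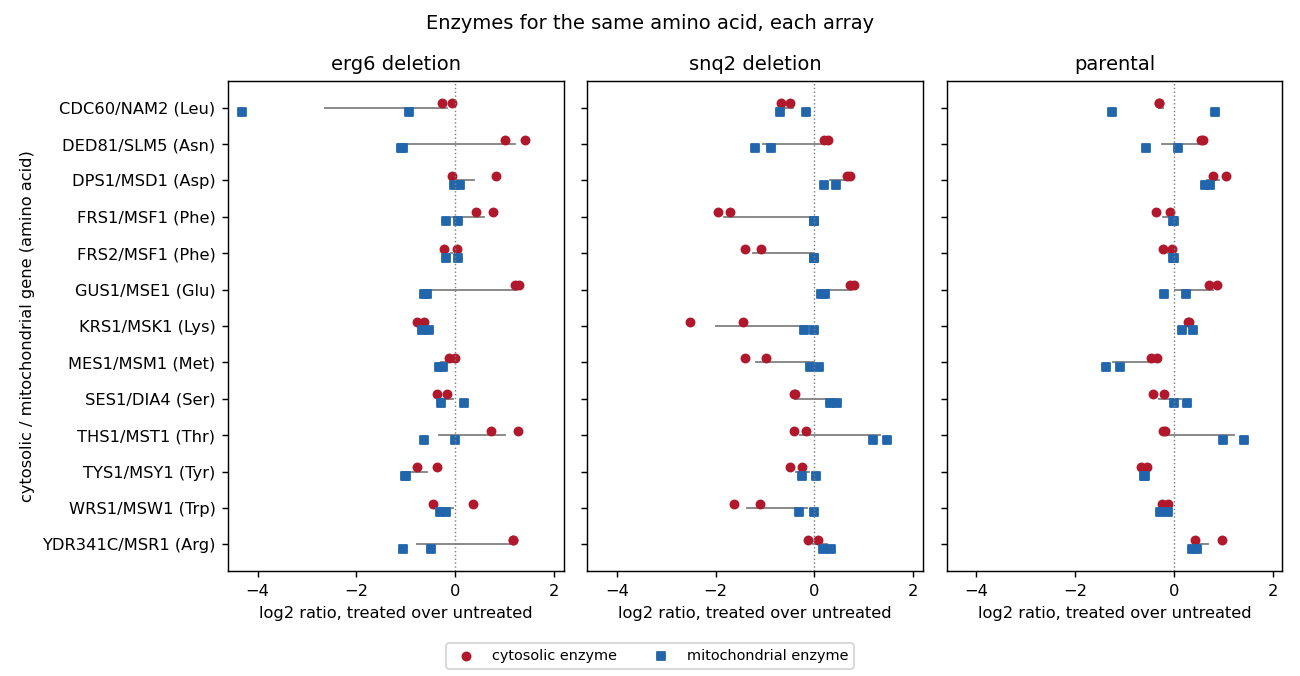
For each amino acid, red circles are the 2 arrays of the cytosolic gene and blue squares those of the mitochondrial gene, as log2 ratios of treated over untreated cells, with a line joining the means. Red lies right of blue for 8 of 13 pairs in the erg6 deletion strain, and left of it for 9 of 13 in the snq2 deletion strain. The share among pairs of other genes was not computed.

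The design also asks how each deletion strain's response differed from that of the parental strain, and both differences share the parental arrays. For the erg6 deletion strain, 7 of the 20 cytosolic genes had a higher response, 1 a lower one and 12 did not pass, where 25.4% of all genes were higher and 31.4% lower. Of the 13 mitochondrial genes 2 were higher, 6 lower and 5 did not pass. Calls that were kept were those of THS1 at 1.22 ± 0.21 (adjusted p = 0.00534) and VAS1 at 1.06 ± 0.14 (adjusted p = 0.00208) among cytosolic genes. Among mitochondrial genes they were MSM1 at 0.96 ± 0.15 (adjusted p = 0.00361), MSK1 at -0.88 ± 0.15 (adjusted p = 0.00462), MSR1 at -1.18 ± 0.21 (adjusted p = 0.0053) and MST1 at -1.53 ± 0.27 (adjusted p = 0.00534). Kept calls of this kind were held by 16.3% of all genes upward and 20.2% downward. The cytosolic count of 8 and the mitochondrial count of 8 were smaller without either parental array, as was the share of all genes past the threshold.

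For the snq2 deletion strain, 8 of the 20 cytosolic genes had a lower response than in the parental strain, 0 a higher one and 12 did not pass, where 22.8% of all genes were lower and 16.4% higher. The 8 were FRS1, FRS2, KRS1, MES1, WRS1, YDR341C, ALA1 and VAS1. Kept among them were KRS1 at -2.28 ± 0.34 (adjusted p = 0.00595), FRS1 at -1.62 ± 0.19 (adjusted p = 0.00273), FRS2 at -1.12 ± 0.18 (adjusted p = 0.00674) and VAS1 at -1.11 ± 0.14 (adjusted p = 0.00368). That is 4 of 20 genes, where 8.44% of all genes had a kept call downward and 6.87% upward. Of the 13 mitochondrial genes MSM1 at 1.24 ± 0.15 (adjusted p = 0.00313, kept) and MSY1 at 0.49 ± 0.14 (adjusted p = 0.039, range 0.0262 to 0.155) had higher responses, and 0 lower. The MSY1 call was lost under 5 alternatives, among them without either parental array, without snq2 deletion replicate 2, with the replicate block and on quantile-normalised arrays. SLM5, at -0.80 ± 0.24, lay at the threshold (adjusted p = 0.05) and did not pass. With scaled arrays, robust eBayes, array weights, annotated genes only or compared strains only, 2 mitochondrial genes were higher and 1 lower. The lower one was SLM5, and 39.4% to 45.4% of the genes tested passed in these fits. Fewer mitochondrial genes passed without parental replicate 2 or snq2 deletion replicate 2. The cytosolic count of 8 was smaller without any parental or snq2 deletion array. The share of all genes past the threshold was also smaller in each of these leave-out fits. VAS1 was the gene kept in both differences with opposite signs, and MSM1 the gene kept in both with the same sign.

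**Figure D4:**
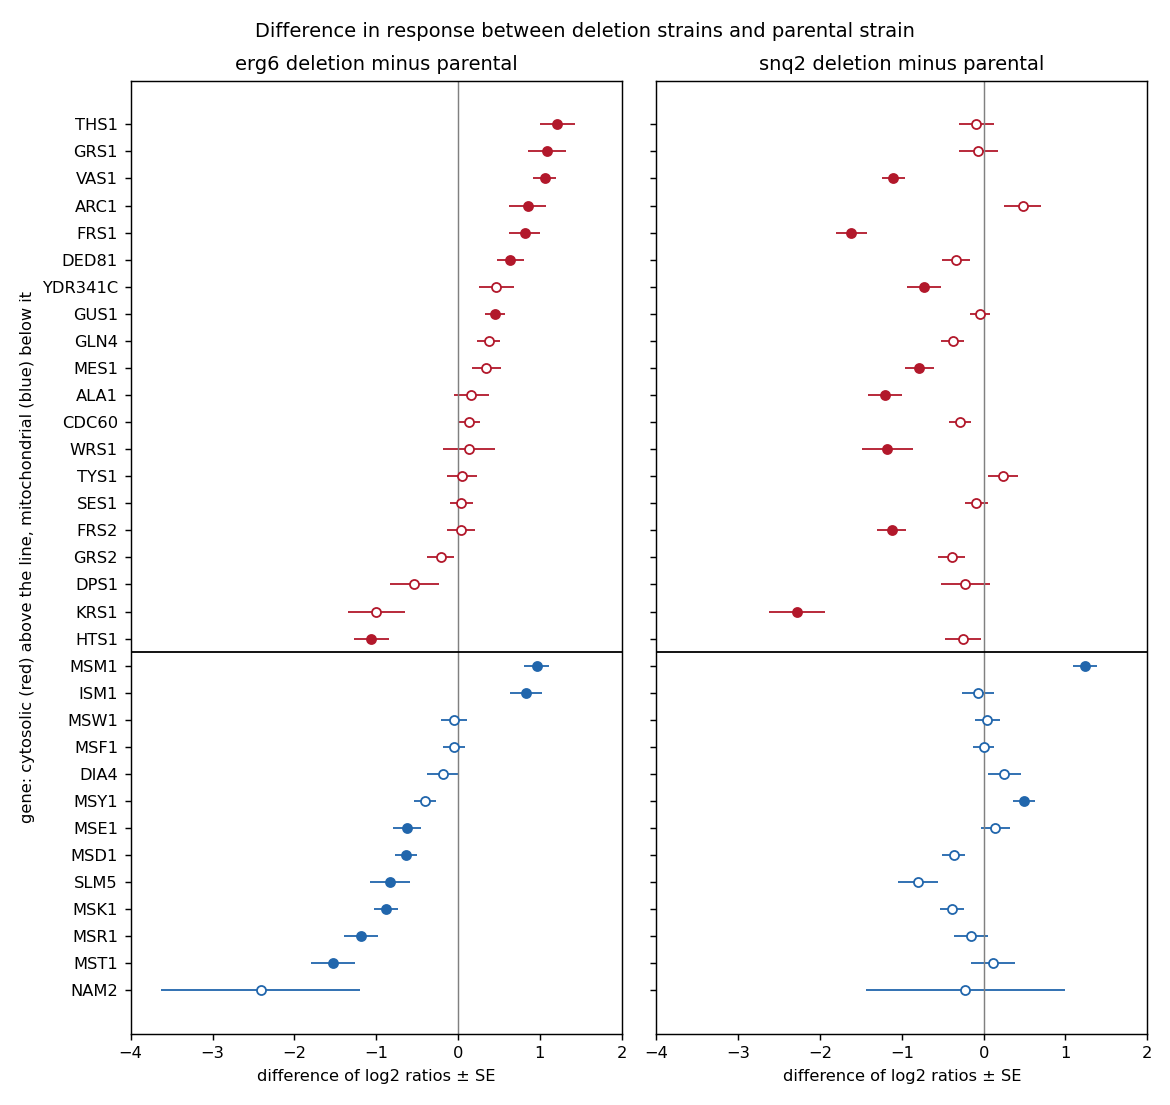
Points are the response in a deletion strain minus that in the parental strain, as a difference of log2 ratios with its standard error; red cytosolic genes stand above the line and blue mitochondrial genes below it, and filled points passed an adjusted p of 0.05. In the right panel the 8 filled cytosolic points all lie below 0, from -2.28 for KRS1 to -0.73 for YDR341C.

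Other genes of tRNA charging and use were counted from lists chosen by function. Their counts stand beside the shares of all genes that rose and fell, which were 23.2% and 31.5% in the erg6 deletion strain, 25.3% and 26.2% in the snq2 deletion strain, and 27.3% and 26.7% in the parental strain. Of the 12 genes that sense uncharged tRNA or act in the initiation step it controls, 2 rose and 4 fell in the erg6 deletion strain, 0 rose and 6 fell in the snq2 deletion strain, and 1 rose and 5 fell in the parental strain. The erg6 deletion falls (33.3% of the list) were near the share of all genes, and the falls in the snq2 deletion (50%) and parental strains (41.7%) above it. The medians of these 12 were -0.26, -0.49 and -0.18, beside -0.11, -0.03 and -0.02 over all genes. GCN4 had log2 ratios of 1.40 and 1.34 on the erg6 deletion arrays, 0.06 and 0.19 on the snq2 deletion arrays, and -1.13 and -1.28 on the parental arrays. The strains did not overlap for GCN4, which rose by 1.37 ± 0.09 in the erg6 deletion strain (adjusted p = 4.29e-04) and fell by 1.20 ± 0.09 in the parental strain (adjusted p = 3.46e-04). GCN20, a partner of the Gcn2 activator Gcn1, fell by 0.93 ± 0.10 in the snq2 deletion strain (adjusted p = 0.00141), and SUI2, the initiation factor subunit that Gcn2 phosphorylates, fell by 0.94 ± 0.11 (adjusted p = 0.00144). Both were also below 0 on the parental arrays, GCN20 at -1.05 and -0.84 and SUI2 at -0.58 and -0.91. On the erg6 deletion arrays GCN20 had 0.50 and 0.29 and SUI2 -0.17 and -0.26. GCN3 and GCD7 encode subunits of the exchange factor eIF2B. GCN3 had -1.10 and -1.03 on the erg6 deletion arrays, -0.90 and -0.71 on the snq2 deletion arrays, and 0.26 and 0.14 on the parental arrays, and it fell by 1.06 ± 0.09 in the erg6 deletion strain (adjusted p = 8.41e-04). GCD7 had -1.06 and -1.21 on the erg6 deletion arrays, 0.17 and -0.06 on the snq2 deletion arrays, and 1.55 and 1.17 on the parental arrays. GCD7 rose by 1.36 ± 0.13 in the parental strain (adjusted p = 6.96e-04), and the difference erg6 deletion minus parental was -2.49 ± 0.18 (adjusted p = 3.50e-04).

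Of 42 genes of tRNA processing and modification, 9 rose and 21 fell in the erg6 deletion strain, 5 rose and 13 fell in the snq2 deletion strain, and 13 rose and 9 fell in the parental strain. The falls in the erg6 deletion strain (50% of the list) were above the 31.5% of all genes, and on centred arrays 35.7% stood beside 24.8%. The snq2 deletion falls (31%) and parental rises (31%) were near the shares of all genes, and the snq2 deletion rises (11.9%) were below the 25.3% of all genes. On centred arrays the erg6 deletion counts were 9 and 15, and with quantile normalisation the parental counts were 10 and 13. The latter are 23.8% and 31% of the list, near the 25.7% and 27.8% of all genes. SEN34, a subunit of the tRNA splicing endonuclease, had log2 ratios of 1.51 and 1.497 on the erg6 deletion arrays, 1.54 and 1.46 on the snq2 deletion arrays, and 0.66 and 0.40 on the parental arrays. TRM5, a tRNA methyltransferase of cytosol and mitochondria, had 0.89 and 1.05 on the erg6 deletion arrays, 0.21 and 0.09 on the snq2 deletion arrays, and 2.14 and 2.10 on the parental arrays. Below 0 on the erg6 deletion arrays were TPT1 at -0.76 and -0.75 and GCD10 at -0.84 and -0.86. On the parental arrays TPT1 had 0.65 and 0.72 and GCD10 0.56 and 0.53. Of 18 genes of RNA polymerase III and its factors, which make tRNA, 3 rose and 8 fell in the erg6 deletion strain, 2 rose and 3 fell in the snq2 deletion strain, and 4 rose and 3 fell in the parental strain. The erg6 deletion falls (44.4% of the list) were above the share of all genes, and all the other counts of this list were below theirs. With scaled arrays the snq2 deletion counts were 4 and 3, beside 27.8% and 26.3% of all genes. With quantile normalisation the parental counts were 2 and 3, beside 25.7% and 27.8% of all genes. RPO31, the largest subunit, had log2 ratios of 0.48 and 0.56 on the erg6 deletion arrays, -1.05 and -1.34 on the snq2 deletion arrays, and -1.04 and -1.04 on the parental arrays. RPO31 fell by 1.19 ± 0.10 in the snq2 deletion strain (adjusted p = 5.73e-04) and fell by 1.04 ± 0.10 in the parental strain (adjusted p = 7.44e-04). In the erg6 deletion strain RPC11 passed at -0.89 ± 0.09 (adjusted p = 0.00136). RET1 passed there at -0.75 ± 0.09 (adjusted p = 0.00202).

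Of 9 measured translation factors of mitochondria, 0 rose and 6 fell in the erg6 deletion strain, 2 rose and 1 fell in the snq2 deletion strain, and 3 rose and 1 fell in the parental strain. The erg6 deletion falls (66.7% of the list) were above the share of all genes, and the rises in the snq2 deletion (22.2%) and parental strains (33.3%) were near it. On centred arrays 4 fell in the erg6 deletion strain (44.4% of the list, beside 24.8% of all genes). With quantile normalisation 3 rose and 3 fell in the snq2 deletion strain, beside 26.2% and 27.5% of all genes. MEF1, an elongation factor of mitochondria, had log2 ratios of -0.77 and -0.79 on the erg6 deletion arrays, -0.32 and -0.16 on the snq2 deletion arrays, and 1.18 and 1.13 on the parental arrays. RRF1, the ribosome recycling factor, had -0.30 and -0.41 on the erg6 deletion arrays, 0.90 and 0.91 on the snq2 deletion arrays, and 2.65 and 2.32 on the parental arrays. For both genes the 3 strains did not overlap, with the erg6 deletion arrays lowest and the parental arrays highest. Of 6 further charging genes, 1 rose and 1 fell in the erg6 deletion strain, 1 rose and 2 fell in the snq2 deletion strain, and 1 rose and 1 fell in the parental strain. A count of 1 is 16.7% of this list, below the shares of all genes, and 2 is 33.3%. HER2 and GTF1 are subunits of the amidotransferase that makes charged glutamine tRNA in mitochondria, and they had opposite signs in the erg6 deletion and parental strains. HER2 had log2 ratios of -0.49 and -0.64 on the erg6 deletion arrays, 0.24 and 0.44 on the snq2 deletion arrays, and 0.40 and 0.38 on the parental arrays. GTF1 had 0.51 and 0.98 on the erg6 deletion arrays, -0.05 and -0.03 on the snq2 deletion arrays, and -0.41 and -0.48 on the parental arrays. HER2 fell by 0.56 ± 0.09 in the erg6 deletion strain (adjusted p = 0.00512) and passed at 0.34 ± 0.09 in the snq2 deletion strain (adjusted p = 0.028) and at 0.39 ± 0.09 in the parental strain (adjusted p = 0.0169). GTF1 passed at 0.75 ± 0.13 in the erg6 deletion strain (adjusted p = 0.00537) and at -0.44 ± 0.13 in the parental strain (adjusted p = 0.0306), and did not pass in the snq2 deletion strain at -0.04 ± 0.13 (adjusted p = 0.816). Values of single genes in these lists come from the fit to all 6 arrays.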

How the data were processed

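Total RNA was measured on 6 arrays with 2 colours, 2 per strain, with treated cells in Cy5 and untreated cells in Cy3 on every array, so a dye effect of a gene stays in each response. Per the labels, a GenePix 4000B read the slides. The authors deposited 1 value per feature and array for 7045 features, taken here as a log2 ratio. The sources used here do not state how these values were corrected, normalised or filtered, nor their base or direction. Control spots (144 Blank, 539 empty) were left out, leaving 6362 genes, of which 5826 matched a locus tag of RefSeq assembly R64, used for names and neighbours alone.

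A linear model with a mean for each strain was fitted across the 6 arrays with limma 3.58.1 under R 4.3.3, with variances moderated by eBayes (residual degrees of freedom 3, prior 2.45). Benjamini-Hochberg adjustment was made over 6362 genes in each of 5 contrasts, with a threshold of 0.05. The script was tested on simulated data. The number of arrays limits the precision, and p-values rest on a spread pooled over strains. The 14 alternatives were array weights, robust eBayes, annotated genes only, a block for replicate number, omission of each of 6 arrays, compared strains only, and arrays centred, scaled or quantile-normalised; a 1.5-fold minimum was also tried. Any member could be named, and for each other list the genes with the 2 smallest p among those past the threshold. TSF1 of the translation factor list was not analysed here. Members and lists were chosen with earlier results of these data known, so they are no independent support. Sequences were not used here.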

Additional observations from a re-analysis of the deposited data

Results flagged for a closer look

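The response differed between a deletion strain and the parental strain by the limma test of the difference itself (adjusted p under 0.05). This held for 16 of the 33 members in the erg6 deletion strain and 10 in the snq2 deletion strain. Of all genes, 56.8% and 39.2% passed the same tests, so members were not called more often than genes in general. For the erg6 deletion strain the differences of log2 ratios, deletion minus parental, were 1.22 for THS1, 1.06 for VAS1, 0.96 for MSM1, -0.88 for MSK1, -1.18 for MSR1 and -1.53 for MST1, calls that passed under all 14 alternatives. They were 1.08 for GRS1, -1.06 for HTS1 and -0.63 for MSD1, each lost without parental replicate 1 (adjusted p up to 0.0594, 0.0528 and 0.0705), and 0.81 for FRS1, lost without parental replicate 2 (up to 0.0793). They were 0.85 for ARC1 and 0.83 for ISM1, lost without either parental array (up to 0.102 and 0.0842), and 0.64 for DED81 and 0.46 for GUS1, lost without either parental array or erg6 deletion replicate 2 (up to 0.097 and 0.132). MSE1 at -0.62 and SLM5 at -0.83 were lost under 5 and 8 alternatives, among them leaving out parental replicate 2, erg6 deletion replicate 2 or either snq2 deletion array (up to 0.112 and 0.114).

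For the snq2 deletion strain the differences were -2.28 for KRS1, -1.62 for FRS1, -1.12 for FRS2, -1.11 for VAS1 and 1.24 for MSM1, which passed under all 14 alternatives. They were -1.20 for ALA1, lost without either parental array (adjusted p up to 0.0547), and -0.78 for MES1, lost without either parental array or snq2 deletion replicate 2 (up to 0.1). WRS1 at -1.17 was lost without any 1 of the parental and snq2 deletion arrays and with the replicate block (up to 0.173). YDR341C at -0.73 was lost without parental replicate 2 or either snq2 deletion array (up to 0.169), and MSY1 at 0.49 without either parental array, without snq2 deletion replicate 2, with the replicate block and on quantile-normalised arrays (up to 0.155). The replicates of KRS1 in the snq2 deletion strain, at -1.45 and -2.52, lay farther apart than those of its other strains.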

How the results depend on the processing

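No call of a member changed sign under any alternative tried, and 43 of the 74 calls were lost under at least 1 of 14. Leaving out an array leaves 1 array in its strain, assumed to vary like the others. Over these 6 fits the cytosolic genes past the threshold numbered 8 to 13 in the erg6 deletion strain (12 with all arrays), 7 to 15 in the snq2 deletion strain (12) and 2 to 10 in the parental strain (10), and the mitochondrial genes 4 to 8 (7), 1 to 5 (3) and 2 to 5 (4). For the erg6 deletion minus parental difference they were 3 to 9 cytosolic (8) and 5 to 8 mitochondrial (8), and for the snq2 deletion minus parental difference 4 to 8 (8) and 1 to 3 (2). The lowest parental counts came without parental replicate 1 or 2, the lowest erg6 deletion counts without erg6 deletion replicate 2, and the lowest snq2 deletion counts without snq2 deletion replicate 2. The share of all genes past the threshold was also smaller in these fits than with all arrays. A fit to the compared strains alone gave 7 cytosolic and 4 mitochondrial genes in the erg6 deletion strain and 5 mitochondrial genes in the snq2 deletion strain. Scaled arrays and array weights each gave 5 mitochondrial genes in the snq2 deletion strain, and array weights 7 in the parental strain. A 1.5-fold minimum left 5 cytosolic genes in the parental strain, where 35.9% of all genes passed. Quantile normalisation, the replicate block and the 1.5-fold minimum each left 1 mitochondrial gene in the snq2 deletion minus parental difference. Of all genes 35.2%, 34.4% and 33% passed there, in that order. The share of all genes past the threshold ranged over the 14 from 30.6% to 55.6% in the erg6 deletion, 26.3% to 58.3% in the snq2 deletion and 30.1% to 60.9% in the parental response. The cytosolic minus mitochondrial median with an array left out spanned 0.40 to 1.03 in the erg6 deletion strain. It spanned -0.48 to -0.32 in the snq2 deletion strain and -0.27 to -0.13 in the parental strain. The ends of each range are the values of that strain's single arrays, and omitting an array of another strain changes nothing. These ranges thus repeat the values per array and do not test the sign. With scaled and quantile-normalised arrays the median difference was 0.66 and 0.67 in the erg6 deletion strain. It was -0.39 and -0.37 in the snq2 deletion strain and -0.16 and -0.16 in the parental strain.

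Strains share replicate numbers 1 and 2, which the labels tie to no batch or day. Deviations of same-numbered arrays correlated across genes at -0.002 (erg6 and snq2 deletion), 0.0948 (erg6 deletion and parental) and -0.0424 (snq2 deletion and parental), so the numbers were not taken as pairs. With the replicate block the cytosolic counts were 12, 12 and 7 in the erg6 deletion, snq2 deletion and parental strains and the mitochondrial ones 6, 4 and 4. Signal over background was not computed, since the values are ratios.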
